A study of Mus musculus with 12 samples.

Results

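Collagens, the elastic fibre proteins, the small proteoglycans that coat collagen fibrils, and the enzymes, inhibitors and receptors that act on them were followed in cultured mouse neurons given 1 of 5 antidepressants. The set was chosen by name as 41 genes, with earlier results of these data known. A gene was represented by the brightest of the array's probe sets (groups of probes for 1 transcript) that carry its symbol alone. By this rule 39 of the 41 were found, out of 22180 named genes on the array. Fbn1 and Loxl2 had no probe set carrying their symbol alone. A further 2 genes, the proteoglycan genes Lum and Ogn, lay below the limit on dim probe sets, so 37 members were tested among 17467 genes.

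The cultures were primary neurons from the brains of ICR (CD-1) embryos, an outbred stock. Drug was added on culture day 3 and RNA was taken 48 h afterwards, on day 5. The 6 groups of 2 arrays each were amitriptyline (5 µM), citalopram (10 µM), duloxetine (0.1 µM), imipramine (5 µM), mirtazapine (50 µM) and control. Amitriptyline and imipramine are tricyclics, citalopram and duloxetine are uptake inhibitors, and mirtazapine is a tetracyclic receptor antagonist. The labels do not say what control cultures were given, nor whether the 2 replicates came from separate cultures, animals or pools. The p-values therefore cover the spread between these arrays alone, which may be technical.

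The extracellular matrix is the protein scaffold that cells secrete around themselves. Fibrillar collagens carry tension, collagen IV builds the sheets under blood vessels and around the brain, and elastic fibres and fibronectin link cells to both. In the brain most of the fibrillar collagen lies in the meninges and around vessels, while neurons and astrocytes are surrounded by a softer matrix of hyaluronan and proteoglycans. Decorin and biglycan bind collagen and growth factors, TIMP proteins restrain the metalloproteases that cut matrix, and the discoidin domain receptors are kinases that sense collagen itself.

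Values are log2 signals, so a difference of 1 is a doubling. Between replicates of a group, 2 arrays stood apart. Duloxetine replicate 2 and mirtazapine replicate 2 had slopes of 0.923 and 0.908 when regressed across genes on the mean of the other arrays, against 0.997 to 1.029 elsewhere. Their upper quartiles were 8.21 and 8.20 (log2), against 8.31 to 8.37 on the other arrays. Across genes they correlated with each other at r = 0.9873, above the r of each with its own replicate (0.9784 and 0.9845). Values without both are given beside results that move with them. The 15 neuronal markers had control means of 7.65 to 12.96. Of the 15 astrocyte markers found, with a median control mean of 8.91, 14 lay above the limit of 5.72 (log2). As 17467 of the 22180 genes passed that limit, passing it alone does not show that a transcript is present. Of 26 meningeal fibroblast and mural markers 25 lay above that limit, and the control means of all 26 ran from 5.19 to 8.54.

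The question was whether each drug, set against the same 2 control arrays, changed the level of these transcripts. Under mirtazapine 5 of the 37 members passed the test (limma, Benjamini-Hochberg adjusted p under 0.05 over all 17467 genes), beside 1.74% of all genes. As the members were chosen with earlier results known, these are set side by side without a test. The collagen receptor gene Ddr2 rose, where 0.269% of all genes rose. Dcn (decorin), Bgn (biglycan), Timp3 and Itgbl1 fell, where 1.47% of all genes fell. For Bgn the fall is that of the brighter of 2 probe sets, while the dimmer one was at 0.215. The median difference over the members was 0.02 log2 units, and that over all genes tested was −0.035, with 21 positive and 16 negative differences. Of the 37 members 17 had an unadjusted p under 0.05, as did 3916 of the 17467 genes. These calls rest on few arrays. For the runs on fewer arrays that follow, here and gene by gene below, the calls over all genes are not given. A call lost in them therefore does not show that the gene depended on an array more than other genes did. Without control replicate 1, or without mirtazapine replicate 2, 0 of the 37 passed in limma, although the 5 differences kept their sign, and without mirtazapine replicate 1 there were 10. Without both arrays that stand apart 5 members passed, with Loxl1 in the place of Bgn.

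Among the other drugs, 0 members passed in limma, where 0% of all genes passed under amitriptyline, citalopram and duloxetine and 0.0286% under imipramine. At an unadjusted p under 0.05 there were 13 members under amitriptyline, 10 under citalopram, 7 under duloxetine and 13 under imipramine. Of the 17467 genes there were 1073 under amitriptyline, 776 under citalopram, 1754 under duloxetine and 797 under imipramine. For the mean of the 5 drugs 0 members passed (0.0515% of all genes did, 0.0286% higher and 0.0229% lower; 13 members had an unadjusted p under 0.05). When any difference among the 6 groups was asked for in 1 F test, Bgn passed (adjusted p = 0.0486 in limma), where 0.103% of all genes passed. Of the 12 runs that leave out 1 array, the Bgn call held in the 1 without duloxetine replicate 1, and it was lost without both arrays that stand apart. All drugs were compared with the same 2 control arrays, so the differences under the drugs are not independent of each other.

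**Figure D1:**
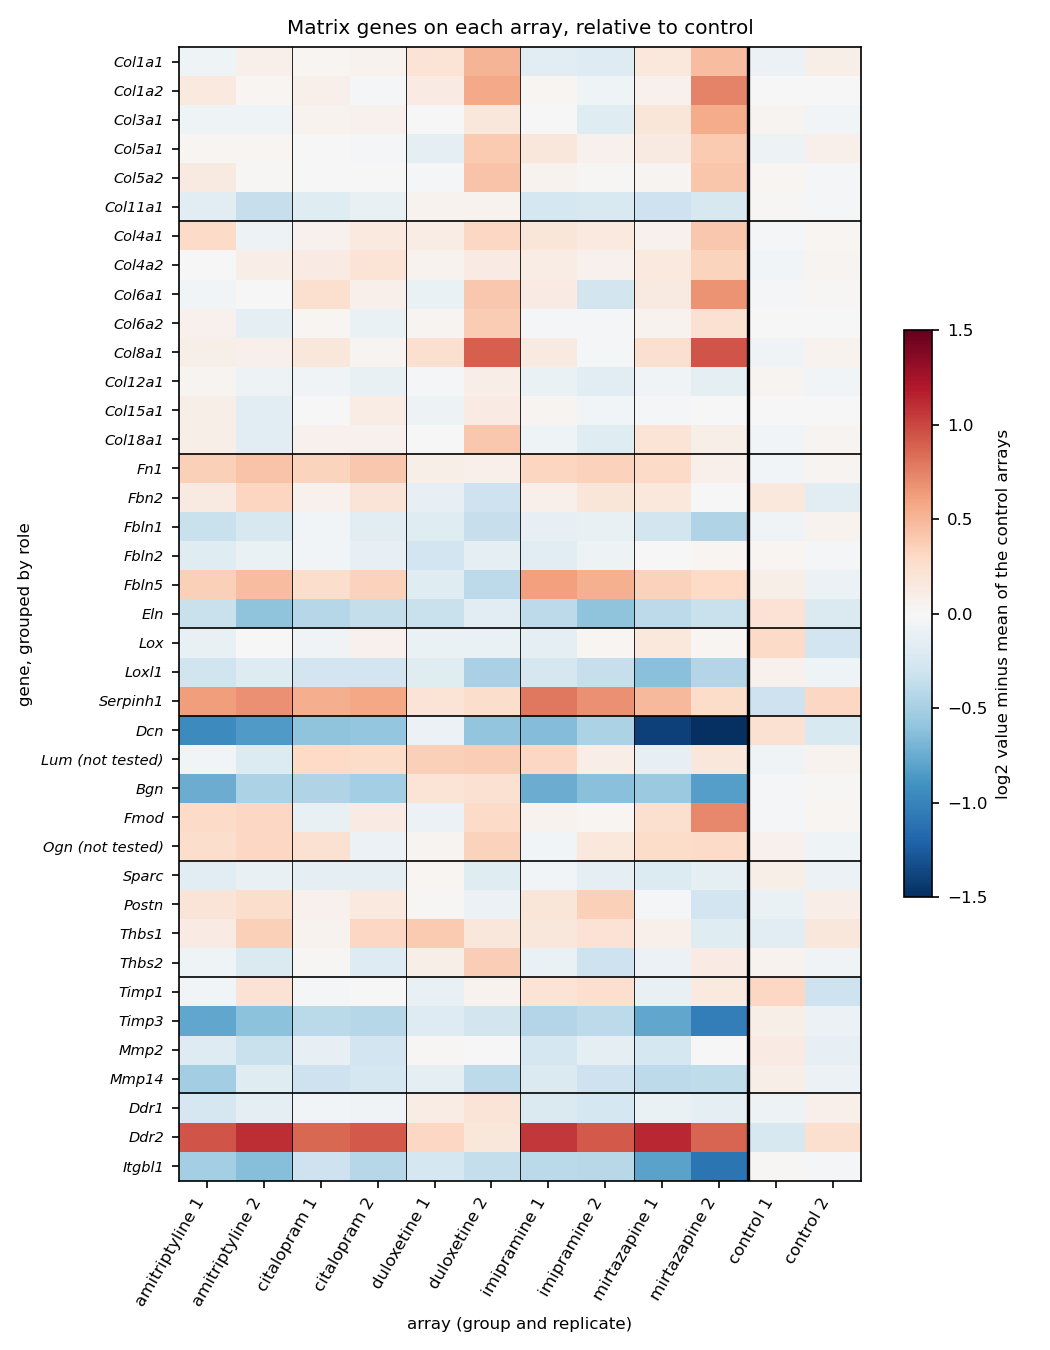
Log2 value minus the mean of the control arrays for the 39 matrix genes found (rows, grouped by role) on each of the 12 arrays (columns, control on the right). Red is above control and blue below. Dcn is darkest blue on both mirtazapine arrays, and Ddr2 is a darker red on the arrays of the other drugs than on those of duloxetine. Most collagens are red on duloxetine replicate 2 and mirtazapine replicate 2.

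The receptors are the members through which cells read collagen. Ddr2 encodes a receptor kinase for fibrillar collagen that is best known from mesenchymal cells. It read 8.66 and 8.41 on the mirtazapine arrays, 8.48 and 8.64 under amitriptyline, 8.40 and 8.45 under citalopram, 8.60 and 8.45 under imipramine and 7.85 and 7.70 under duloxetine, against 7.30 and 7.77 in control. Both arrays of mirtazapine, amitriptyline, citalopram and imipramine lay above both control arrays, whereas the duloxetine arrays overlapped with control. Under mirtazapine the difference was 1.00 ± 0.154 (SE, n = 2 each), a 2-fold rise with an adjusted p of 0.0195 in limma. For amitriptyline the difference was 1.025 (adjusted p = 0.0651 in limma), for citalopram 0.89 (adjusted p = 0.295) and for imipramine 0.99 (adjusted p = 0.0817), none of which passed. Under duloxetine the difference was 0.24, with a 95% interval from −0.103 to 0.583. Without duloxetine replicate 2 and mirtazapine replicate 2, Ddr2 passed under amitriptyline (adjusted p = 0.0268 in limma), imipramine (0.0345) and mirtazapine (difference 1.125, adjusted p = 0.0243). The control arrays differed by 0.47 for this gene. Under mirtazapine the call ended without control replicate 1 (difference 0.765, adjusted p = 0.152 in limma), without mirtazapine replicate 2 (1.125, adjusted p = 0.0791) and without either citalopram array (adjusted p = 0.0503).

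Ddr1, the collagen receptor kinase of epithelial and neural cells, read 9.19 and 9.15 under mirtazapine, 9.04 and 9.15 under amitriptyline, 9.25 and 9.24 under citalopram, 9.08 and 9.03 under imipramine and 9.41 and 9.49 under duloxetine, against 9.22 and 9.37 in control. Its differences ran from −0.24 under imipramine to 0.155 under duloxetine, and the smallest unadjusted p was 0.0223. Under amitriptyline, citalopram, imipramine and mirtazapine the 2 receptor genes had differences of opposite sign, of which that of Ddr2 under mirtazapine passed. A second, dimmer Ddr1 probe set differed in sign from the first under amitriptyline (0.115), citalopram (0.10) and mirtazapine (0.025), so no direction is given for Ddr1.

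Itgbl1 encodes a secreted protein built of repeats like those of integrin beta chains. It read 6.22 and 5.93 under mirtazapine, 6.51 and 6.39 under amitriptyline, 6.72 and 6.60 under citalopram, 6.62 and 6.61 under imipramine and 6.76 and 6.67 under duloxetine, against 7.04 and 7.01 in control. Every drug array lay below both control arrays, and the mirtazapine arrays were the lowest. The difference under mirtazapine was −0.95 ± 0.108 (SE, n = 2 each), a 1.93-fold fall with an adjusted p of 0.01 in limma, the lowest of the members. For amitriptyline it was −0.575 (adjusted p = 0.106 in limma), for citalopram −0.365, for imipramine −0.41 and for duloxetine −0.31. Without the 2 arrays that stand apart Itgbl1 passed under mirtazapine (−0.805, adjusted p = 0.0139 in limma) and amitriptyline (adjusted p = 0.0256). The call under mirtazapine ended without control replicate 1 (−0.935, adjusted p = 0.112 in limma) and without mirtazapine replicate 2 alone (adjusted p = 0.0585).

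The small leucine-rich proteoglycans hold the member with the widest change. Decorin (Dcn), which binds collagen fibrils and TGF-beta, read 7.53 and 7.12 under mirtazapine, 7.98 and 8.09 under amitriptyline, 8.33 and 8.35 under citalopram, 8.28 and 8.46 under imipramine and 8.85 and 8.34 under duloxetine, against 9.16 and 8.71 in control. Only duloxetine replicate 1 reached into the range of the control arrays. Under mirtazapine Dcn fell 3.05-fold (difference −1.61 ± 0.20 SE, n = 2 each, adjusted p = 0.0115 in limma). For amitriptyline the difference was −0.90 (adjusted p = 0.155 in limma), for citalopram −0.595, for imipramine −0.565 and for duloxetine −0.34. On the arrays that do not stand apart Dcn passed under mirtazapine (−1.405, adjusted p = 0.0139 in limma) and amitriptyline (adjusted p = 0.0305). Under mirtazapine the call ended without control replicate 1 (−1.385, adjusted p = 0.112 in limma) and without mirtazapine replicate 2 alone (adjusted p = 0.0791).

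Biglycan (Bgn), the nearest relative of decorin, read 8.12 and 7.85 under mirtazapine, 7.94 and 8.21 under amitriptyline, 8.23 and 8.17 under citalopram and 7.94 and 8.05 under imipramine, against 8.66 and 8.70 in control. The duloxetine arrays were at 8.89 and 8.91, above control, so duloxetine and the other drugs lay on opposite sides of it. Under mirtazapine Bgn fell 1.62-fold (difference −0.695 ± 0.118 SE, n = 2 each, adjusted p = 0.0228 in limma). For amitriptyline the difference was −0.605 (adjusted p = 0.115 in limma), for citalopram −0.48 (adjusted p = 0.535), for imipramine −0.685 (adjusted p = 0.105) and for duloxetine 0.22 (adjusted p = 0.516). The Bgn call under mirtazapine ended without the 2 arrays that stand apart (−0.56, adjusted p = 0.0551 in limma), and Bgn then passed under amitriptyline (adjusted p = 0.0344) and imipramine (adjusted p = 0.0335). It also ended without control replicate 1 (adjusted p = 0.167 in limma), control replicate 2 (0.102), mirtazapine replicate 2 (0.143) or either citalopram array (0.0557). Biglycan has a second, dimmer probe set, and the 2 probe sets disagree. The dimmer one read 7.78 and 8.17 under mirtazapine, 7.78 and 7.71 under amitriptyline, 7.83 and 7.60 under citalopram, 7.57 and 7.54 under imipramine and 7.79 and 8.29 under duloxetine, against 7.77 and 7.75 in control. For this probe set the differences were 0.215 under mirtazapine, −0.015 (amitriptyline), −0.045 (citalopram), −0.205 (imipramine) and 0.28 (duloxetine), with adjusted p from 0.475 to 1 in limma over all 23521 probe sets with 1 symbol. With the mean of both probe sets, the Bgn difference under mirtazapine was −0.24 (adjusted p = 0.213 in limma).

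**Figure D2:**
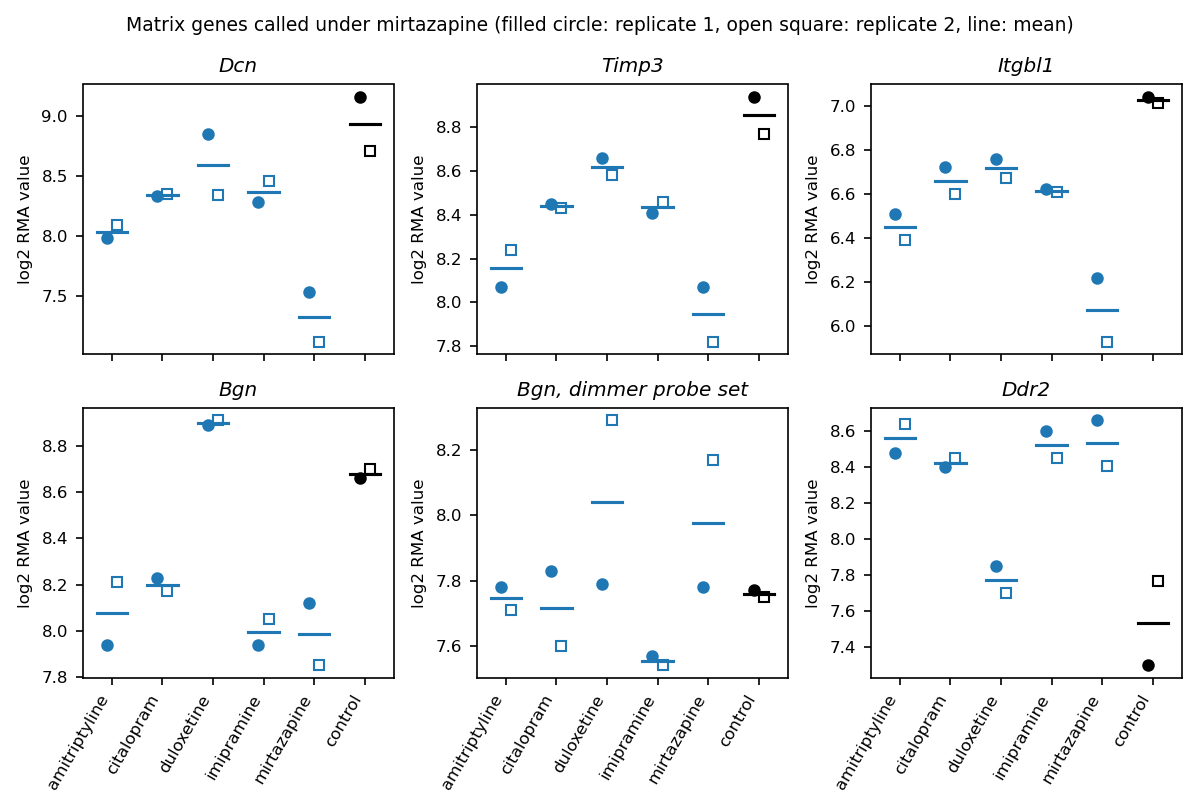
Log2 RMA value (y axis, scaled per panel) on each array for the 5 members called under mirtazapine and for the dimmer Bgn probe set, by group (x axis, control on the right). Circles are replicate 1, squares replicate 2 and lines group means. Ddr2 is at 8.40 or above on every array of the drugs other than duloxetine, and the dimmer Bgn probe set does not show the fall of the brighter one.

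Fibromodulin (Fmod), a proteoglycan that guides collagen fibril assembly, read 6.74 and 7.22 under mirtazapine, against 6.47 and 6.54 in control (difference 0.475, unadjusted p = 0.017, not passing). Its higher value is on mirtazapine replicate 2, and without the arrays that stand apart the difference was 0.235. The keratan sulfate proteoglycans lumican (Lum) and osteoglycin (Ogn) were below the limit on dim probe sets and were not tested. Lum read 4.95 and 5.24 under mirtazapine, 5.03 and 4.87 under amitriptyline, 5.37 and 5.34 under citalopram, 5.38 and 5.17 under imipramine and 5.43 and 5.44 under duloxetine, against 5.02 and 5.12 in control. Ogn read 5.26 and 5.28 under mirtazapine, 5.25 and 5.30 under amitriptyline, 5.22 and 4.90 under citalopram, 4.95 and 5.15 under imipramine and 5.03 and 5.34 under duloxetine, against 5.05 and 4.93 in control. Lum is the gene next to Dcn on chromosome 10.

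Among proteases and their inhibitors, Timp3 was the member that passed. TIMP3 is the metalloprotease inhibitor that stays bound to the matrix. Timp3 read 8.07 and 7.82 under mirtazapine, 8.07 and 8.24 under amitriptyline, 8.45 and 8.43 under citalopram, 8.41 and 8.46 under imipramine and 8.66 and 8.58 under duloxetine, against 8.94 and 8.77 in control. All drug arrays lay below both control arrays. Under mirtazapine it fell 1.88-fold (difference −0.91 ± 0.11 SE, n = 2 each, adjusted p = 0.0107 in limma). For amitriptyline the difference was −0.70 (adjusted p = 0.0737 in limma), for citalopram −0.415, for imipramine −0.42 and for duloxetine −0.235. It passed under amitriptyline without the 2 arrays that stand apart (adjusted p = 0.0227 in limma), and under mirtazapine it was then at −0.785 (adjusted p = 0.0198). Under mirtazapine the call ended without control replicate 1 (−0.825, adjusted p = 0.112 in limma) and without mirtazapine replicate 2 alone (adjusted p = 0.0653). Mmp14, the membrane protease that activates MMP2, had differences from −0.385 under mirtazapine to −0.26 under duloxetine, all 5 negative and none passing. Mmp2, a gelatinase, ran from −0.265 under amitriptyline to 0.005 under duloxetine without passing. The soluble inhibitor gene Timp1 was among the dimmest members. It read 5.87 and 6.13 under mirtazapine, 5.94 and 6.20 under amitriptyline, 5.95 and 5.99 under citalopram, 6.19 and 6.24 under imipramine and 5.87 and 6.04 under duloxetine, all inside the control arrays' 6.30 and 5.67.

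The promoters of 4 of the 5 members called under mirtazapine are shown so that the sequences before these genes can be compared. Each window runs from 250 bases before to 50 bases after a transcript start in RefSeq (GRCm38.p6), and capitals mark a GC box (GGGCGG on either strand) or a TATA box (TATAAA on either strand). The Ddr2 window is chr1:170088895-170089194 (minus strand), the Timp3 window chr10:86300162-86300461, the Bgn window chrX:73483351-73483650 and the Itgbl1 window chr14:123659890-123660189 (all plus strand).
Ddr2: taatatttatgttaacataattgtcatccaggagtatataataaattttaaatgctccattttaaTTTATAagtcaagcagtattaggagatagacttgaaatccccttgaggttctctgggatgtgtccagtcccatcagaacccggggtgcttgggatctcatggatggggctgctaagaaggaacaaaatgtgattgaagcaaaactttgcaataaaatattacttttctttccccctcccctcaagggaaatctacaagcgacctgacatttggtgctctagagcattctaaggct
Timp3: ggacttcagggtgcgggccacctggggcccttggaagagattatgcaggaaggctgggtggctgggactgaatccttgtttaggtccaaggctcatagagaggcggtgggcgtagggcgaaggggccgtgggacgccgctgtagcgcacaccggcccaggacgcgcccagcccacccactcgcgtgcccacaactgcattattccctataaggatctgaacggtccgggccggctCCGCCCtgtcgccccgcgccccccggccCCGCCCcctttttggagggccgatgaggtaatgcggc
Bgn: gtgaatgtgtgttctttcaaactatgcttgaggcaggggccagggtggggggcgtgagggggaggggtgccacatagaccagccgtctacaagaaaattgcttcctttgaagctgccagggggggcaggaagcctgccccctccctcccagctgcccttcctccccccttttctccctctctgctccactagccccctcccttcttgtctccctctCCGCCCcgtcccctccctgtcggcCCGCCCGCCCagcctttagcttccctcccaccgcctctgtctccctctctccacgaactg
Itgbl1: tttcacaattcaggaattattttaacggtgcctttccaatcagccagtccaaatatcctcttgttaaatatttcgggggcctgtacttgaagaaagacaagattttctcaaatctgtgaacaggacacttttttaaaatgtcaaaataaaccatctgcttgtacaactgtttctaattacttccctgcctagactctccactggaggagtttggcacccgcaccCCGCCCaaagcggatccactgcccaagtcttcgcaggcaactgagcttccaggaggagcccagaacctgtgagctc
GC boxes numbered 3 in the Bgn window (2 of them overlapping), 2 in that of Timp3, 1 in that of Itgbl1 and 0 in that of Ddr2, the gene that rose. The Ddr2 window held 39.0% G or C, and those of Itgbl1, Bgn and Timp3 held 45.3%, 63.7% and 67.0%, where the median of all windows was 52.7%. Windows were listed for 28 members, 36 windows in all. A GC box was in 61.1% of them and in 35.7% of all 32851 windows, and a TATA box in 13.9% and 13.6%. Of 7 other motifs searched on both strands, the CCAAT box (CCAAT) was in 36.1% of the members' windows and 37.4% of all, and the core of the antioxidant response element (TGANNNNGC) in 38.9% and 41.3%. The AP-1 motif (TGANTCA) was in 5.56% of the members' windows and 7.81% of all, the E box (CACGTG) in 5.56% and 7.15%, and an ATF4 motif (TGATGNAA) in 2.78% and 3.97%. The cyclic AMP response element (TGACGTCA) was in 0% and 1.79%, and the NF-kB motif (GGGNNTTCC) in 0% and 5.82%. Overlapping matches of the different motifs were each counted. These are letter matches and not shown binding sites.

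The elastic fibre and fibronectin genes split by gene, with 4 positive and 2 negative differences of 6 under mirtazapine and 0 that passed (3 with an unadjusted p under 0.05). Fibronectin (Fn1), which joins cells to collagen through integrins, read 10.42 and 10.21 under mirtazapine, 10.49 and 10.56 under amitriptyline, 10.46 and 10.53 under citalopram, 10.45 and 10.48 under imipramine and 10.22 and 10.21 under duloxetine, against 10.09 and 10.17 in control. All drug arrays lay above both control arrays, those of duloxetine by the least. With amitriptyline the difference was 0.395 ± 0.0932 (SE, n = 2 each, adjusted p = 0.188 in limma), with citalopram 0.365 (adjusted p = 0.567) and with imipramine 0.335 (adjusted p = 0.431). With mirtazapine it was 0.185 and with duloxetine 0.085. Without the 2 arrays that stand apart, Fn1 passed under amitriptyline (adjusted p = 0.0414 in limma) but not under imipramine (adjusted p = 0.104).

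Fibulin 5 (Fbln5), needed for elastic fibre assembly, read 8.32 and 8.28 under mirtazapine, 8.34 and 8.44 under amitriptyline, 8.24 and 8.32 under citalopram and 8.60 and 8.51 under imipramine, against 8.07 and 7.89 in control. The duloxetine arrays were at 7.80 and 7.59, below both control arrays, while those of the other drugs were above. The difference was 0.575 ± 0.104 (SE, n = 2 each) under imipramine (adjusted p = 0.11 in limma). With mirtazapine it was 0.32, with amitriptyline 0.41, with citalopram 0.30 and with duloxetine −0.285 (adjusted p = 0.492). Without the arrays that stand apart it passed under imipramine (adjusted p = 0.0383 in limma), and under duloxetine it was at −0.18 (adjusted p = 0.767). Elastin (Eln), the core of the fibre, had differences from −0.495 under imipramine to −0.25 under duloxetine, with −0.36 under mirtazapine. None of the 5 passed, and the control arrays of Eln were at 7.71 and 7.27. The fibulin genes Fbln1 and Fbln2 were at −0.365 and 0.015 under mirtazapine, and the fibrillin gene Fbn2 was at 0.075, without passing.

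Collagen processing genes did not share a direction. Serpinh1 encodes HSP47, the chaperone that folds procollagen in the endoplasmic reticulum. It read 9.19 and 8.97 under mirtazapine, 9.33 and 9.38 under amitriptyline, 9.24 and 9.28 under citalopram, 9.49 and 9.39 under imipramine and 8.91 and 8.96 under duloxetine, against 8.39 and 9.01 in control. Both arrays of amitriptyline, citalopram and imipramine were above both control arrays, but the control arrays differed by 0.62. For imipramine the difference was 0.74 ± 0.168 (SE, n = 2 each, adjusted p = 0.223 in limma), for amitriptyline 0.655 (adjusted p = 0.241) and for citalopram 0.56 (adjusted p = 0.67). Without control replicate 2, Serpinh1 and Ddr2 passed under both amitriptyline and imipramine.

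Loxl1, an enzyme that cross-links elastin, read 7.22 and 7.41 under mirtazapine, 7.55 and 7.66 under amitriptyline, 7.56 and 7.56 under citalopram, 7.60 and 7.50 under imipramine and 7.67 and 7.36 under duloxetine, against 7.91 and 7.79 in control. Every drug array was below both control arrays. The difference under mirtazapine was −0.535 ± 0.119 (SE, n = 2 each), just short of passing (adjusted p = 0.0565 in limma), and without the 2 arrays that stand apart it passed (−0.63, adjusted p = 0.0226). It was −0.335 under duloxetine (adjusted p = 0.492), −0.30 under imipramine, −0.29 under citalopram and −0.245 under amitriptyline. The cross-linking enzyme gene Lox, a dim member, read 6.03 and 5.91 under mirtazapine, 5.76 and 5.87 under amitriptyline, 5.82 and 5.94 under citalopram, 5.74 and 5.90 under imipramine and 5.78 and 5.78 under duloxetine. Its control arrays, at 6.16 and 5.59, were further apart than any of these.

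**Figure D3:**
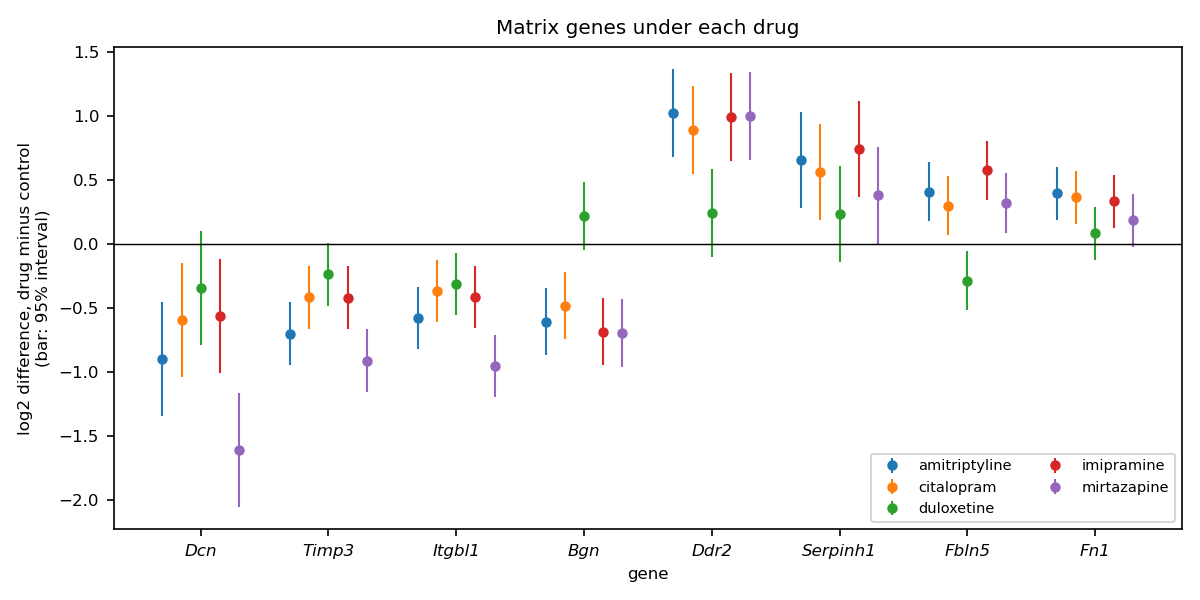
Log2 difference from control with its 95% interval (y axis) under each of the 5 drugs, for 8 matrix genes (x axis). For Dcn, Timp3 and Itgbl1 all 5 differences are below 0 and that of mirtazapine is the lowest. For Bgn (brighter probe set) and Fbln5 the duloxetine difference has the opposite sign to those of the other drugs. No test between drugs at different doses was made.

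Matricellular proteins signal from the matrix without building it. Their 4 differences under mirtazapine ran from −0.17 to 0.02 and 0 passed in limma (0 with an unadjusted p under 0.05). Thrombospondin 1 (Thbs1), a synapse-promoting protein that astrocytes secrete, read 8.85 and 8.59 under mirtazapine, 8.90 and 9.13 under amitriptyline, 8.83 and 9.08 under citalopram, 8.94 and 8.99 under imipramine and 9.17 and 8.94 under duloxetine, against 8.60 and 8.95 in control. The arrays at 9.17 (duloxetine), 9.13 (amitriptyline), 9.08 (citalopram) and 8.99 (imipramine) were above both control arrays. The mirtazapine array at 8.59 was just below both, and the other drug arrays lay between them. Sparc, a collagen-binding protein, had differences from −0.17 under mirtazapine to −0.075 under duloxetine, all negative and none passing. Periostin (Postn) ran from −0.155 under mirtazapine to 0.27 under imipramine (unadjusted p = 0.0473, not passing), and Thbs2 from −0.20 under imipramine to 0.225 under duloxetine.

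No collagen of the 14 passed in limma under any drug. Under mirtazapine 11 of 14 differences were positive (median 0.2375, range −0.275 to 0.595), and under duloxetine 14 of 14 (median 0.175, range 0.02 to 0.565). Over all 17467 genes 7726 and 8187 were positive under these 2 drugs. The collagen medians were −0.005 under amitriptyline, 0.045 under citalopram and −0.0175 under imipramine, where the medians of all genes lay between −0.02 and −0.005. At an unadjusted p under 0.05 there were 5 collagens under mirtazapine, 2 under duloxetine, 1 under amitriptyline, 1 under imipramine and 0 under citalopram, to be read against the counts over all genes given above. The positive medians were mostly on the arrays that stand apart. Set against the control mean, the median collagen was 0.40 on mirtazapine replicate 2 and 0.10 on replicate 1, and 0.39 on duloxetine replicate 2 and 0.0275 on replicate 1. On the same 2 arrays that stand apart, the 6370 genes whose control means lie in the collagens' range (5.945 to 7.575) had medians of 0.205 and 0.205. Without those arrays the median collagen difference was 0.10 under mirtazapine (11 of 14 positive) and 0.0275 under duloxetine (8 of 14 positive).

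**Figure D4:**
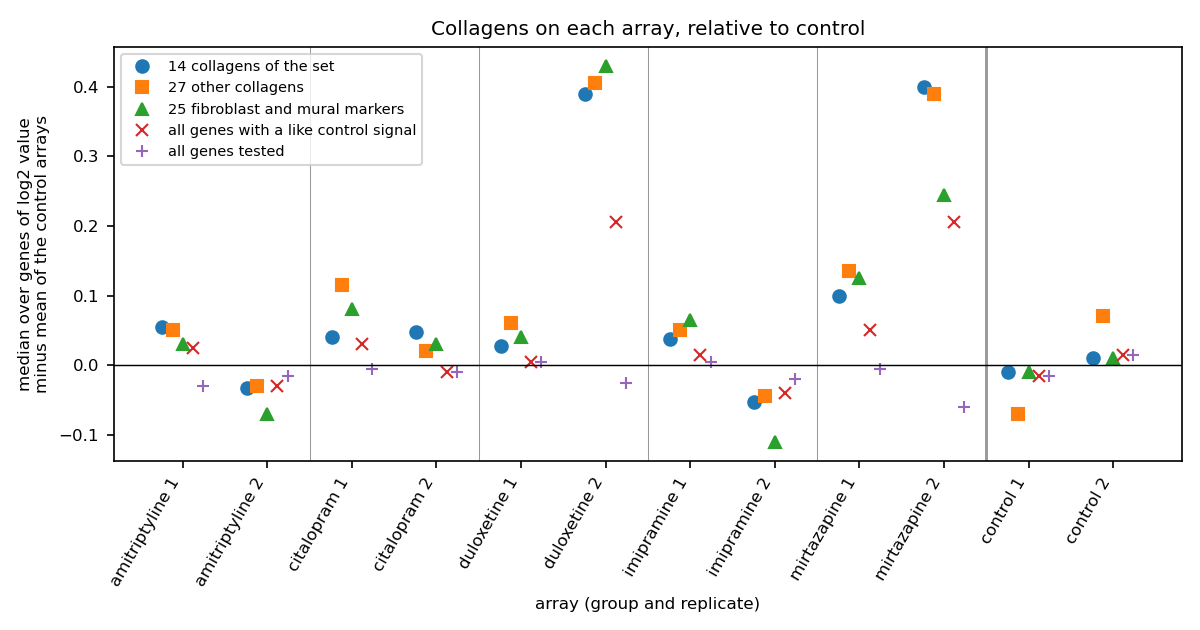
Median over genes of the log2 value minus the control mean (y axis) on each of the 12 arrays (x axis, control on the right), for the 14 collagens of the set, 27 other collagens, 25 fibroblast and mural markers, all 6370 genes with control means in the collagens' range, and all genes tested. The collagen medians reach 0.39 and 0.40 on duloxetine replicate 2 and mirtazapine replicate 2, where genes of like signal are at 0.205.

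Col8a1, a short-chain collagen of vessel walls, gave the widest difference among the collagens. It read 6.19 and 6.89 under mirtazapine, 6.03 and 6.02 under amitriptyline, 6.11 and 5.99 under citalopram, 6.08 and 5.91 under imipramine and 6.18 and 6.84 under duloxetine, against 5.89 and 6.0 in control. The 2 highest readings are on the arrays that stand apart. Its difference was 0.595 under mirtazapine and 0.565 under duloxetine (unadjusted p = 0.0302 and 0.0375), and without those arrays 0.245 and 0.235. For type I collagen, the main tensile collagen, Col1a1 was at 0.31 and Col1a2 at 0.405 under mirtazapine, and at 0.36 and 0.345 under duloxetine, none passing. Without the arrays that stand apart Col1a1 was at 0.16 and Col1a2 at 0.065 under mirtazapine, and at 0.21 and 0.125 under duloxetine. Col11a1, a minor fibrillar chain, had the opposite sign under mirtazapine but not under duloxetine. Its differences ran from −0.275 under mirtazapine to 0.055 under duloxetine. None of these passed (lowest unadjusted p = 0.0109). The multiplexin genes Col15a1 and Col18a1, whose C-terminal fragments limit vessel growth, were at −0.01 and 0.15 under mirtazapine.

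Among the members 4 pairs are direct neighbours in the genome: Col4a1 with Col4a2, Col6a1 with Col6a2, Col3a1 with Col5a2, and Dcn with Lum. The chains of each collagen pair had positive differences under mirtazapine that did not pass: 0.235 and 0.24 for Col4a1 and Col4a2, 0.405 and 0.14 for Col6a1 and Col6a2, and 0.37 and 0.23 for Col3a1 and Col5a2. Without the arrays that stand apart the same differences were 0.065 and 0.15, 0.135 and 0.055, and 0.18 and 0.04, so much of their size was on mirtazapine replicate 2. Col4a1 and Col4a2 encode the 2 chains of the main basement membrane collagen and are read in opposite directions. The Col4a1 window (chr8:11312777-11313076, minus strand, GRCm38.p6, RefSeq) is shown because the listed starts of the 2 genes lie 21 bases apart: capitals mark the 78 bases that it shares with the window of Col4a2. These are its last bases and include the 50 after the Col4a1 start.
Col4a1: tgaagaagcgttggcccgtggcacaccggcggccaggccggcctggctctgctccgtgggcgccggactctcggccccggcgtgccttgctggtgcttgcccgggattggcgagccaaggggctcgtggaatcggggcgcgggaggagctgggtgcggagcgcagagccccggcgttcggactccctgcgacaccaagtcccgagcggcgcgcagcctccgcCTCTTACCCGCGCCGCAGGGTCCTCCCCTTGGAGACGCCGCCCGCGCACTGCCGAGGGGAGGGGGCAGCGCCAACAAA
Col4a1 read 7.64 and 7.98 under mirtazapine and 7.69 and 7.89 under duloxetine, against 7.54 and 7.61 in control. Col4a2 read 7.52 and 7.70 under mirtazapine and 7.42 and 7.49 under duloxetine, against 7.33 and 7.41 in control. In both genes all these drug arrays were above both control arrays, and so were those of citalopram and imipramine. Amitriptyline read 7.86 and 7.50 for Col4a1 and 7.36 and 7.47 for Col4a2. Neither gene passed (unadjusted p = 0.134 and 0.0294 under mirtazapine in limma).

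**Figure D5:**
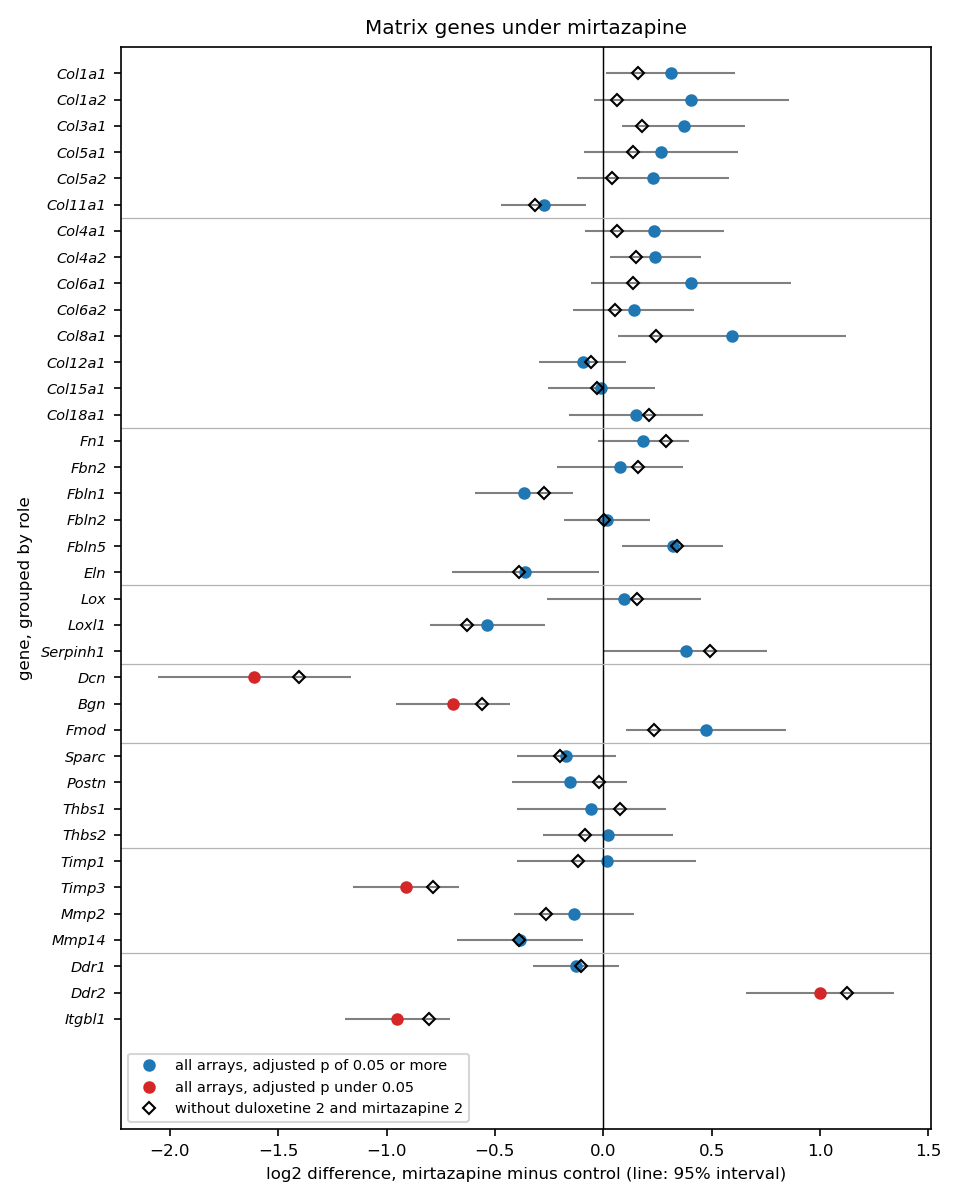
Log2 difference, mirtazapine minus control (x axis), with its 95% interval for the 37 tested members (rows, grouped by role). Red points passed with all arrays, and open diamonds are differences without duloxetine replicate 2 and mirtazapine replicate 2. Dcn, Bgn (brighter probe set), Timp3 and Itgbl1 lie below 0 and Ddr2 above it in both. Most collagen diamonds are nearer to 0 than their points.

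Other matrix genes were read from 7 lists of genes outside the set. The 27 other collagens had medians of 0.26 under mirtazapine and 0.215 under duloxetine, all 27 positive under each and 0 passing in limma (6 and 2 with an unadjusted p under 0.05). Without the 2 arrays that stand apart the medians were 0.135 and 0.06, with 23 and 18 positive. Of 25 collagen maturation enzymes 1 fell under mirtazapine: P4ha3, a prolyl hydroxylase subunit (−0.84, adjusted p = 0.0255 in limma). Of 18 laminin and basement membrane genes 1 fell, Smoc1 (−0.85, adjusted p = 0.0173 in limma). Of 29 neural matrix genes 1 fell and 1 rose. Brevican (Bcan), a proteoglycan of the matrix around neurons, was at −0.775 (adjusted p = 0.0223 in limma), and the hyaluronan receptor gene Cd44 at 0.62 (adjusted p = 0.0223). Under mirtazapine 0 of 25 TGF-beta pathway genes, 0 of 23 matrix proteases and inhibitors and 0 of 16 integrins passed (3, 5 and 3 with an unadjusted p under 0.05). The medians of these lists under mirtazapine were −0.055 for maturation enzymes, −0.0175 for laminins, −0.04 for neural matrix, −0.02 for TGF-beta genes, −0.02 for proteases and 0 for integrins, beside −0.035 for all genes. Under the other 4 drugs 0 genes of these lists passed in limma (0 to 5 per list and drug had an unadjusted p under 0.05).

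Marker lists of cell types were read beside these members. In RNA of a whole culture, fewer cells of a type and less RNA per cell cannot be told apart. Of 14 astrocyte markers tested 4 fell under mirtazapine, where 1.47% of all genes fell. Of the differences 12 were negative (median −0.38), beside 9657 of the 17467 genes (median −0.035). The other 2 were positive, up to 0.33, without passing. Those of lowest p were the water channel gene Aqp4 (−1.165, adjusted p = 0.01 in limma), the filament gene Gfap (−0.60, adjusted p = 0.0214) and the glutamine synthetase gene Glul (−0.535, adjusted p = 0.0255). The mean log2 level of the 14 markers was 9.08 to 9.147 under mirtazapine, 9.068 to 9.159 under amitriptyline, 9.229 to 9.291 under citalopram, 9.121 to 9.171 under imipramine and 9.44 to 9.509 under duloxetine, against 9.444 to 9.506 in control. The part of this in the lower Dcn, Timp3, Itgbl1 and brighter Bgn probe set was not tested. Meningeal fibroblast and mural markers had 0 of 25 passing under mirtazapine in limma (6 with an unadjusted p under 0.05, beside 3916 of the 17467 genes). Of their differences 20 were positive, beside 7726 of the 17467, and the median was 0.235. Without the arrays that stand apart that median was 0.125. Their mean log2 level was 6.716 to 6.842 under mirtazapine and 6.647 to 6.952 under duloxetine, against 6.606 to 6.665 in control. The part of this in the collagen values was not tested. Endothelial and microglial markers had medians of 0.1525 and 0.1975 under mirtazapine (0.11 and 0.0925 without the arrays that stand apart). Of these 0 passed in limma (3 and 1 with an unadjusted p under 0.05). The fibroblast and mural, endothelial and microglial lists were dim (median control means 6.47, 6.33 and 6.71). On mirtazapine replicate 2 their medians against control were 0.245, 0.2275 and 0.2275. The 6370 genes with control means in the collagens' range were at 0.205 there and at 0.05 on replicate 1. The part of array signal in these list medians was not tested. The 15 neuronal markers had a median of −0.05 and 0 passing in limma (3 with an unadjusted p under 0.05).

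Amitriptyline and imipramine, which share the tricyclic ring system, were given at the same concentration and form the only pair of drugs at a matched dose. With amitriptyline minus imipramine, 0 of 37 members passed in limma (1 with an unadjusted p under 0.05), where 0% of all genes passed. The member of lowest p was Timp3, at 8.07 and 8.24 under amitriptyline and 8.41 and 8.46 under imipramine. Its difference was −0.28, with a 95% interval from −0.526 to −0.034 (unadjusted p = 0.0296, adjusted p = 1 in limma). For Ddr2 the difference was 0.035 and the interval −0.308 to 0.378, for Dcn −0.335 (−0.781 to 0.111) and for Bgn 0.08 (−0.183 to 0.343). A p that misses the threshold does not show that the 2 drugs act alike on these genes. The other drugs were given at different concentrations, so their values are set side by side without a test between them.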

How the data were processed

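The 12 RNA samples were labelled for whole-transcript arrays (Affymetrix), per the labels' protocols. The deposited log2 values per probe set were made by the authors with Expression Console and RMA, per the submitters' processing notes. Their versions, settings and genome build are not named there. The files hold log2 values without counts, so depth is unknown, and the 2 arrays per group limit the precision: for the median gene, the 95% interval of a difference was its estimate ± 0.282 (log2).

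Titles gave the groups and replicate numbers, and the treatment protocol gave dose and duration. Of 41345 probe sets 23521 had 1 symbol in the platform annotation, 1814 several and 16010 none. By gene number 99.2% of the first matched the gene table, and 0 symbols changed. A gene was tested if its brightest probe set averaged at least the array-wide 30th percentile. All 12 arrays entered 1 linear model (limma 3.58.1, R 4.3.3, lmFit and eBayes, 6 residual and 3.86 prior degrees of freedom), checked on simulated data. P-values were two-sided and Benjamini-Hochberg adjusted over 17467 genes. Members, the 12 gene lists and the alternatives were chosen with earlier results of these data known, and lists are described by counts and medians. Every array's value is given for members called, the 3 of lowest p per drug, and the 5 of highest and of lowest control mean. Serpinh1, Fmod, Col4a1, Col4a2 and the second Bgn probe set were added after their values were seen. Of listed genes outside the set at most 3 called genes per list and direction are named. Sequences are from RefSeq (GRCm38.p6).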

Additional observations from a re-analysis of the deposited data

How the results depend on the processing

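The 5 differences under mirtazapine kept their sign in every alternative run in which the gene was tested. The dimmer Bgn probe set, at 0.215 under mirtazapine, had the opposite sign to the brighter one. Leaving out 1 array at a time gave 0 to 10 members called under mirtazapine, 0 to 2 under amitriptyline, 0 under citalopram, 0 to 3 under duloxetine, 0 to 2 under imipramine, 0 to 4 for the mean of the drugs, 0 for amitriptyline against imipramine and 0 to 6 in the F test. The median member difference then ran from −0.01 to 0.075 under mirtazapine, −0.01 to 0.12 under duloxetine, −0.085 to −0.02 under imipramine and 0.004 to 0.071 for the mean of the drugs. With only the arrays of the groups compared, mirtazapine kept 1 member, Dcn. Array weights gave 6 members under amitriptyline, 1 under citalopram, 4 under imipramine, 5 for the mean of the drugs and 0 in the F test. Without both arrays that stand apart there were 6 under amitriptyline, 3 under imipramine, 5 for the mean of the drugs and 0 in the F test, and the duloxetine median was −0.01. A moderated variance with trend and robust fitting gave 2, 1, 2 and 5 for amitriptyline, imipramine, the mean of the drugs and the F test, and a second quantile normalization gave 2, 1, 1 and 5. The 50th percentile filter gave 1 for amitriptyline, 2 for the mean of the drugs and 5 in the F test, where no filter and the mean of all probe sets gave 0. The cause of these changes in the counts was not tested in any setting. Calls over all genes in the alternative runs are not given here. The counts therefore do not show whether members gained or lost more calls than other genes. With the replicate number as a block 5 members passed under mirtazapine (adjusted p 0.0102 to 0.0397 in limma) and 0 in the F test. The numbers do not show a pairing: of 15 pairs of groups, 4 had correlated replicate differences over 0.1 (r from −0.438 to 0.712). The highest r was that of duloxetine with mirtazapine, the groups of the 2 arrays that stand apart. With 2 arrays per group, small differences could not be told from array spread, and dim probe sets such as those of Lum and Ogn were not tested.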
